A study of Mus musculus with 4 samples.

Results

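The 6 genes described here encode the sulfate, oxalate and dicarboxylate carriers of the Slc13 and Slc26 families: Slc13a1, Slc26a1, Slc26a6, Slc26a2, Slc13a3 and Slc13a2. They were chosen by name, all 6 were among the 27998 genes counted, and all 6 passed the minimum of 50 UMIs in every comparison of days over proximal tubule cells. They were followed in kidney cells of male C57BL/6 mice aged 6-8 weeks, for which the labels name no transgene or deletion, and which were given glyoxylate into the peritoneum for 0, 1, 4 or 7 days (D0, D1, D4 and D7). Glyoxylate is turned into oxalate in the body, and the series concerns the calcium oxalate nephropathy that follows. Single cells were sequenced by the droplet method, with 1 library per day. The labels do not say how many mice went into a library, what the D0 mice received, or which kidney regions were taken. Days therefore cannot be told apart from libraries, no test between animals was possible, and every interval below is a 95% interval for counting error only.

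Sulfate is filtered freely at the glomerulus and is taken back by the proximal tubule in a pair of steps. Slc13a1 carries it in from the urine together with sodium, and Slc26a1 lets it out on the blood side in exchange for other anions, oxalate among them. Slc26a6 works in the brush border and exchanges chloride or formate for oxalate, a route by which oxalate reaches the urine, while Slc26a2 is a sulfate exchanger of many tissues that is best known from cartilage. Slc13a2 takes up citrate and other dicarboxylates from the urine, and Slc13a3 takes up dicarboxylates from the blood. Urinary citrate binds calcium and keeps it from forming crystals.

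Proximal tubule cells were barcodes with at least 2 UMIs of Lrp2 (megalin) and Slc34a1 (a phosphate carrier) together and at most 50% mitochondrial UMIs. The D0, D1, D4 and D7 libraries held 12003, 8044, 15468 and 13079 such cells, out of 16426, 12730, 16427 and 15087 barcodes. All 11 proximal tubule markers outside the gate were higher in these cells than in the other barcodes of every library, by 1.04-fold to 11.1-fold. The median depth of these cells was 5672, 6977.5, 5023.5 and 5712 UMIs, and their median mitochondrial share was 16.5, 11.0, 16.9 and 17.9%. The lowest depth of any barcode was 500 UMIs at D0 and D1 but 2919 and 2773 UMIs at D4 and D7. Any pair of libraries shared 50 to 81 barcodes, at most 0.537% of the later library. Levels are given as UMIs per 1000000 UMIs of the same cells (CPM). A UMI stands for the 3' end of a molecule, so levels were not divided by gene length, and the capture of different 3' ends may differ. A gene was called higher in a comparison from a ratio of 1.5 and lower from its inverse.

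Slc13a1 was the most abundant of the 6 in each library and its level was higher at each later day. Proximal tubule cells held 273, 391, 488 and 616 CPM at D0, D1, D4 and D7, from 22275, 26493, 42463 and 52605 UMIs. The intervals of the 4 libraries did not overlap. At D7 the level was 2.25-fold that at D0 (2.22 to 2.29), at D4 it was 1.78-fold (1.76 to 1.81), and at D1 it was 1.43-fold (1.40 to 1.46), which is under the 1.5-fold line. Slc13a1 was thus the only member called higher at D7 or D4, where 13.3% and 8.17% of all genes tested were called higher, and no member was called higher at D1, where 9.39% of genes were. The median gene had log2 ratios of 0.08, 0.03 and 0.12 at D7, D4 and D1. With edgeR's TMM scaling, which moved the libraries by 0.15 (D1), 0.03 (D4) and 0.09 (D7) on the log2 scale against D0, Slc13a1 remained on the same side of the 1.5-fold line at every day. Phagocyte markers in the same cells summed to 74.8, 209, 108 and 250 CPM at D0, D1, D4 and D7, while cells of the phagocyte gate held Slc13a1 at 0.771 to 3.13% of the proximal tubule level.

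The shares of the 6 carriers differed between days with it. Their summed level was 577, 613, 832 and 919 CPM at D0, D1, D4 and D7, and Slc13a1 made up 47.4, 63.8, 58.6 and 67.0% of that sum. Slc13a3 made up 28.5, 20.4, 23.9 and 19.5%, and Slc26a1 17.3, 10.6, 12.4 and 9.66%. The other 3 carriers together stayed below the level of either.

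**Figure D1:**
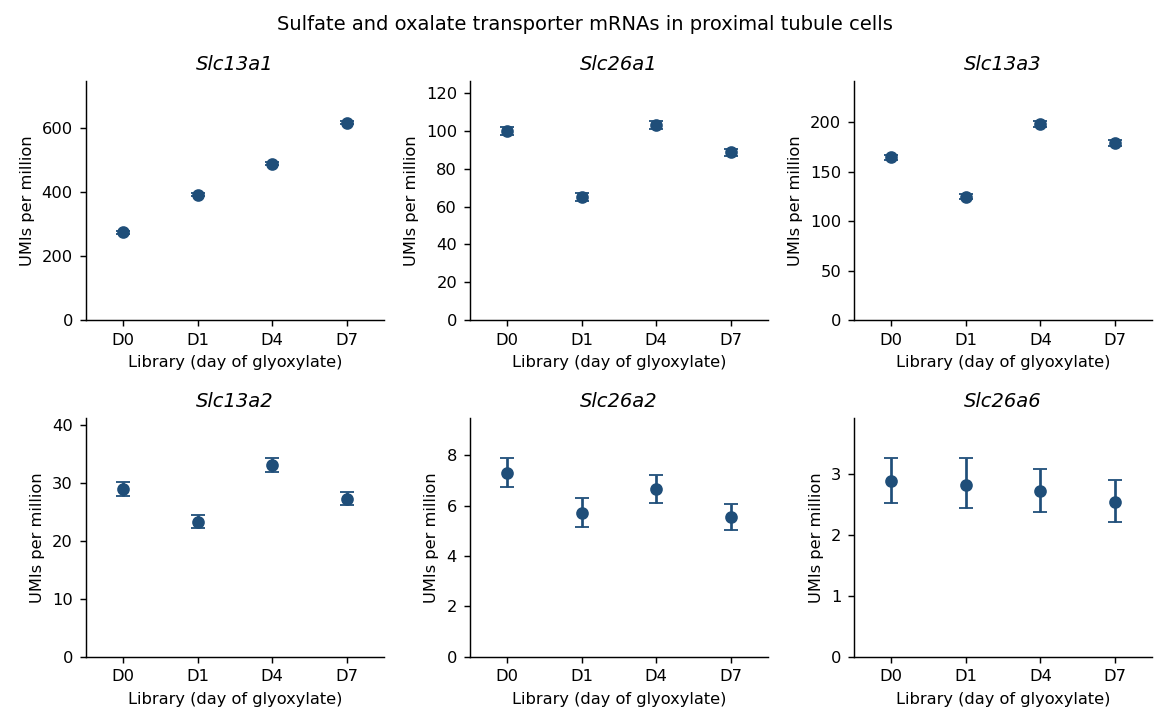
Level of each of the 6 carriers in proximal tubule cells, in CPM, in the libraries of D0, D1, D4 and D7; each point is 1 library and bars are 95% intervals for counting error. Slc13a1 stands at 273, 391, 488 and 616, while Slc26a1, Slc13a3 and Slc13a2 each have their lowest point at D1.

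Slc26a1, the exit step for sulfate, had 100, 65.2, 103 and 88.7 CPM at D0, D1, D4 and D7, from 8152, 4415, 8987 and 7579 UMIs. The D1 library stood lowest. Its ratio to D0 was 0.651 (0.628 to 0.676), and Slc26a1 was the only member called lower at D1, where 1.71% of genes were called lower. The call lies close to its line and was lost at 0.672 with at least 5 UMIs of Lrp2 and Slc34a1, at 0.713 with every cell thinned to 1000 UMIs, and at 0.712 in cells of 5000 to 8000 UMIs. At D7 the ratio to D0 was 0.887 (0.860 to 0.915) and at D4 it was 1.03 (1.00 to 1.06), with a value below 1 (0.868) in cells of 5000 to 8000 UMIs. No member was called lower at D4 or D7, where 2.87% and 3.43% of genes were.

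The dicarboxylate carriers shared the low D1 value. Slc13a3 had 164, 125, 198 and 179 CPM at D0, D1, D4 and D7, and its ratio to D0 was 0.759 on day 1 (0.739 to 0.780), 1.21 on day 4 (1.18 to 1.23) and 1.09 on day 7 (1.06 to 1.11). Slc13a2 had 28.9, 23.3, 33.1 and 27.2 CPM, with ratios to D0 of 0.804, 1.14 and 0.941. At D4, relative to D1, Slc13a3 was 1.59-fold higher (1.55 to 1.63) and Slc26a1 1.58-fold higher (1.53 to 1.64), the 2 members called in that comparison, where 6.43% of genes were called higher and 8.95% lower. Slc13a2 was at 1.42-fold in the same pair (1.34 to 1.51). Between D7 and D4 no member was called over all proximal tubule cells, while 5.87% of genes were called higher and 1.52% lower. The D1 library also had the lowest mitochondrial share and the deepest cells. The D1 call of Slc26a1 was kept with at most 25% mitochondrial UMIs and when scaled without mitochondrial UMIs. The part of depth and mitochondrial share in the low values was not tested beyond these alternatives and those named above.

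Slc26a2 also had a low D1 value, at 0.782-fold of D0 (0.686 to 0.890). The stretches of genome just before the starts of Slc13a2, Slc13a3 and Slc26a1 are shown as those of 3 genes with a low D1 value. They were read from RefSeq's promoter table, which has entries for 4 of the 6 members. Each is written from 5′ to 3′ on the gene's strand, without bases that GENCODE M21 places in an exon, on GRCm38.p6. Capitals mark matches to the letters named after them, so a match on the opposite strand shows as its complement read backwards.
Slc13a2, chr11:78422235-78422484, minus strand: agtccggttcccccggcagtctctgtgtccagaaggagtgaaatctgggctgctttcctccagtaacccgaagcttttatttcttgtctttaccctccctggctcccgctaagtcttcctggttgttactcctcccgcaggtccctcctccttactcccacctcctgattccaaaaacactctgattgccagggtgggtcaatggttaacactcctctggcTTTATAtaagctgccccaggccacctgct
Slc13a3, chr2:165473231-165473447, minus strand: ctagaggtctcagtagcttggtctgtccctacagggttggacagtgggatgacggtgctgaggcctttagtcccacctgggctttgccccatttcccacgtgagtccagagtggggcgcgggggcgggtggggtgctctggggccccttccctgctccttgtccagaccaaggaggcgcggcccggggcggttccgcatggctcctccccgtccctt
Slc26a1, chr5:108674797-108675046, minus strand, before the inner of its 2 listed starts: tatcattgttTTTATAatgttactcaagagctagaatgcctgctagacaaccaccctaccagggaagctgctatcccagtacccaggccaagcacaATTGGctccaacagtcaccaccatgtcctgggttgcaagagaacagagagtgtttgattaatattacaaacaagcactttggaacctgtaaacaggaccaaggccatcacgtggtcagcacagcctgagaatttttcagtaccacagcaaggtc
The letters searched on both strands were GTTAAT (the core of the site of hepatocyte nuclear factor HNF1), TATAAA (the TATA box), TGACCT (a nuclear receptor core site) and CCAAT. In the 250 bases before the start, 6.43% of the 32851 promoters in the table hold the nuclear factor core, 12.4% the TATA box and 14.0% the receptor core, and 11120 of them hold CCAAT. Slc13a2 holds a match to the letters TATAAA on the opposite strand, 29 bases before its start. Other forms of the TATA box were not searched on either strand. Slc26a1 holds a TATA box match 240 bases and a CCAAT match 154 bases before its start, both on the opposite strand. The 217 bases of Slc13a3 hold none of the 4 in this window. No letters among the 4 were held by all 3 stretches.

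Positions of the genes themselves are those of GENCODE M21 on the same build. Slc13a1 lies at chr6:24088283-24168092, Slc13a2 at chr11:78397087-78422217, Slc13a3 at chr2:165405028-165473230 and Slc26a1 at chr5:108669878-108675569, all on the minus strand. Slc26a2 lies at chr18:61192919-61211612 on the minus strand, and Slc26a6 at chr9:108853283-108913049 on the plus strand. The span of Slc26a6 is set by a minority of its transcripts, since 8 of the 10 listed end at or before base 108862143. Slc26a1 lies within Idua, a lysosomal enzyme gene on the other strand, and the strand setting of the counting is not given in the sources used here. Idua had 0.835, 1.05, 1.23 and 1.07 CPM in proximal tubule cells at D0, D1, D4 and D7, far under the level of Slc26a1. The antisense genes Slc13a2os and Gm14437, which overlap Slc13a2 and Slc13a3, had at most 16 UMIs and 1 UMI in these cells in any library.

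The oxalate exchanger Slc26a6 and the general sulfate exchanger Slc26a2 were the 2 least abundant members. Slc26a6 had 2.88, 2.83, 2.72 and 2.54 CPM at D0, D1, D4 and D7, from 235, 192, 237 and 217 UMIs. Its ratio to D0 was 0.881 at D7, with an interval of 0.729 to 1.06, so the counting interval spans a fall to 0.729-fold and a rise to 1.06-fold. Slc26a2 had 7.30, 5.71, 6.65 and 5.54 CPM, and its ratio to D0 was 0.758 at D7 (0.671 to 0.857). Neither gene was called at any day.

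The proximal tubule cells were then split by the segment they came from. The late gate took cells with at least 3 UMIs of Slc7a13, a cystine and aspartate carrier of the straight end segment, and the early gate cells with at least 2 UMIs of Slc5a2 and Slc5a12, the glucose and lactate carriers of the convoluted part. The late gate held 3247, 2046, 3525 and 3376 cells at D0, D1, D4 and D7 and the early gate 3103, 1829, 4007 and 3528, while 124 to 407 cells met both and 4045 to 7529 met neither. All 4 late markers and all 4 early markers outside the gates were higher on their own side in every library, by at least 3.37-fold for the late and 1.18-fold for the early ones. Gate genes are themselves counted RNAs, so cells with few UMIs fall into neither gate more easily.

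The carriers differed by segment, and the order was much the same in all 4 libraries. Slc13a2 was 2.28, 2.08, 1.75 and 1.83-fold higher in the late than in the early gate at D0, D1, D4 and D7, at 40.4 against 17.7 CPM in the D0 library. Slc26a1 had 88.4 CPM in the late and 154 CPM in the early gate at D0, and its late to early ratios were 0.575, 0.546, 0.490 and 0.604. These were the 1 member called higher and the 1 called lower in all 4 libraries, as were 4.01% and 10.2% of the genes tested in all 4. Slc13a3 was on the late side in each library, at ratios of 1.87, 2.06, 1.46 and 1.48, and Slc13a1 on the early side, at ratios of 0.677, 0.683, 0.702 and 0.501. Slc26a6 had ratios of 0.633, 0.657, 0.653 and 0.727 from 61 to 91 UMIs per gate, and the interval lay below 1 at D0, D1 and D4. Within single libraries, Slc13a3 was called higher beside Slc13a2 at D0 and D1, where 8.32% and 8.26% of genes were, and Slc13a2 alone at D4 and D7, where 5.82% and 5.71% were. Beside Slc26a1, Slc26a6 was called lower at D0, D1 and D4, where 20.3, 19.5 and 17.9% of genes were, and Slc13a1 at D7, where 18.3% were. The Slc26a6 values passed the line in 11, 11 and 10 of 14 alternatives at D0, D1 and D4, and with at most 25% mitochondrial UMIs the D1 and D4 ratios were 0.706 and 0.717. With the gates set on thinned cells, the Slc13a2 ratio was 1.10 at D1 and 1.09 at D7 and its call was lost. The Slc26a2 ratios were 1.09, 0.969, 0.794 and 1.03, and only the D4 interval (0.633 to 0.995) did not include 1. The median gene had log2 ratios of -0.19, -0.18, -0.20 and -0.22 in this comparison.

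**Figure D2:**
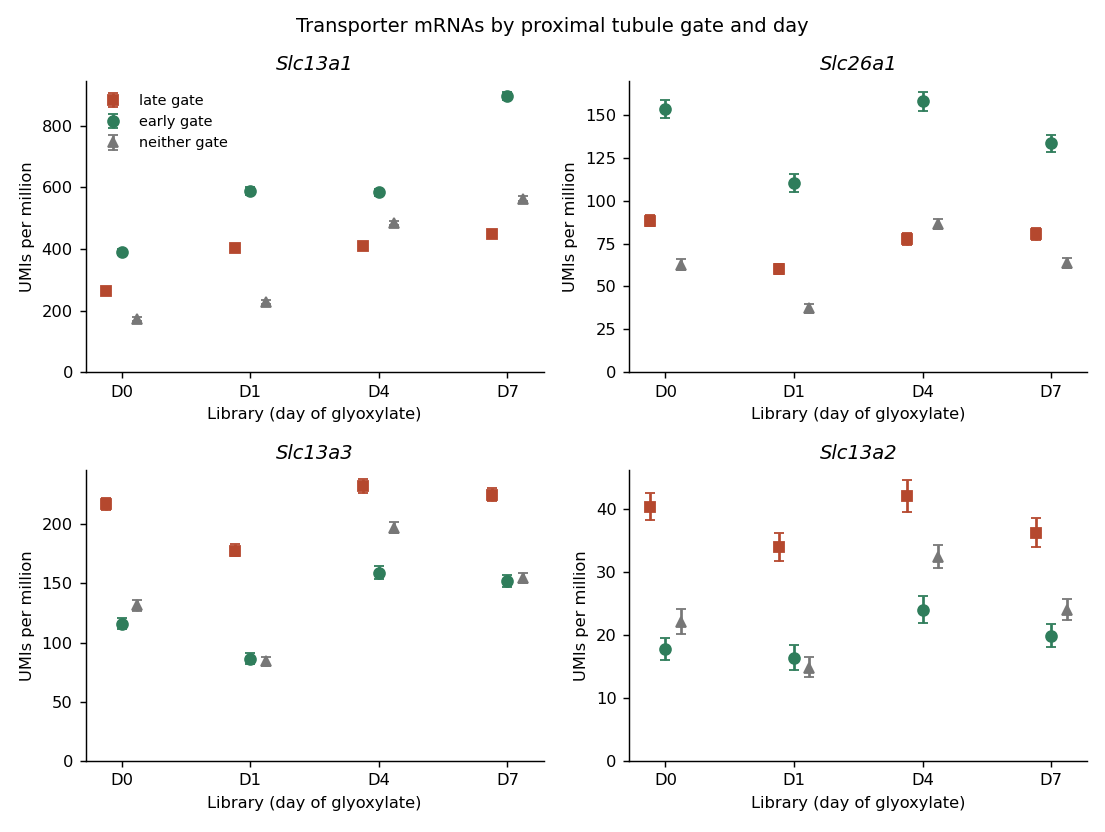
Level of Slc13a1, Slc26a1, Slc13a3 and Slc13a2, in CPM, in late gate cells (squares), early gate cells (circles) and cells of neither gate (triangles) of each library; bars are 95% intervals for counting error. Slc13a1 and Slc26a1 are higher in the early gate and Slc13a3 and Slc13a2 in the late gate of every library, and Slc13a1 of the early gate reaches 896 at D7.

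Within each gate the Slc13a1 level was higher at D1, D4 and D7 than at D0, but the step from D1 to D4 was not shared by all. In the late gate it was 264, 402, 410 and 449 CPM at D0, D1, D4 and D7, and in the early gate 390, 588, 584 and 896 CPM. Cells of neither gate had 172, 227, 484 and 563 CPM. The D1 and D4 intervals overlapped in the late gate (394 to 409 and 402 to 418) and in the early gate (576 to 600 and 573 to 594). They lay apart in cells of neither gate (221 to 233 and 477 to 491). This step was not particular to Slc13a1. In cells of neither gate, the D1 and D4 levels were 84.0 and 197 CPM for Slc13a3 and 37.2 and 86.4 CPM for Slc26a1. Those of Slc13a2 were 14.8 and 32.5 CPM. Slc13a3, Slc26a1 and Slc13a2 were also higher at D4 than at D1 in the late and early gates. The D7 to D0 ratio of Slc13a1 was 1.70 (1.65 to 1.74) in the late gate, 2.30 (2.24 to 2.36) in the early gate and 3.27 (3.16 to 3.38) in neither. In these comparisons 9.86, 10.2 and 14.2% of genes were called higher. No member was called lower in them, while 2.4, 2.58 and 4.98% of genes were. The late gate's ratio was 0.739 times that of the early gate (0.712 to 0.767). At D1 the ratio was 1.52 in the late gate (1.48 to 1.56) and 1.51 in the early gate (1.46 to 1.55), both called, and 1.32 in neither (1.26 to 1.37), not called; 5.36, 4.93 and 8.2% of genes were called higher. At D4 it was 1.55 in the late gate (1.51 to 1.60) and 2.81 in neither (2.72 to 2.91), both called. The early gate, at 584 CPM, lay just under the line at 1.496. Its ratio passed the line at 1.516 with at least 3000 UMIs per cell and at 1.503 with the highest doublet scores removed. Without cells of another gate it was 1.509. With the main settings, 8.07, 10.8 and 6.72% of genes were called higher in the late gate, in neither and in the early gate. No other member was called higher over D0 in any of the 3 groups of cells with the main settings. In neither gate at D4, however, Slc13a3 lay just under the line at 1.497. It passed the line in several alternatives, at 1.705 with at most 25% mitochondrial UMIs and 1.72 in cells of 5000 to 8000 UMIs. Slc13a2 was at 1.47 in neither gate at D4, and at 1.58 and 1.97 in the same alternatives. Slc26a1, at 1.38 there, passed the line at 1.53 with at most 25% mitochondrial UMIs. At D4 no member was called lower, while 2.22, 1.4 and 6.39% of genes were in the late gate, the early gate and neither. Over D4, the D7 level of Slc13a1 was 1.09-fold in the late gate (1.07 to 1.12) and 1.53-fold in the early gate. The early gate value passed the line, and the share of all genes called in that comparison was not computed.

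The median depth in neither gate was 3423 (D0), 4202 (D1), 4539 (D4) and 4847 UMIs (D7), and no barcode under 2773 UMIs was present at D4 or D7. The part of depth in these ratios was not tested beyond the alternatives. In cells of 5000 to 8000 UMIs of all gates the D7 to D0 ratio of Slc13a1 was 2.11. It was the lowest of the 14 alternative values, the highest being 2.29. Within the late gate, cells of that depth had ratios of 1.44 at D7 and 1.33 at D4, so both calls were lost there, while at D7 the early gate had 1.98 and neither gate 3.48. The D1 values close to the line were 1.40 in the early and 1.43 in the late gate when scaled without mitochondrial UMIs, and neither was then called.

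Slc26a1 was low at D1 in all 3 groups of cells, with ratios to D0 of 0.681 (0.640 to 0.724) in the late gate, 0.718 (0.677 to 0.760) in the early gate and 0.595 (0.546 to 0.648) in neither. Of these only the last was called, together with Slc13a3 in the same cells (0.638, but 0.751 in cells of 5000 to 8000 UMIs), where 3.53% of genes were called lower, against 1.5% in the late and 1.39% in the early gate. In 2 alternatives Slc26a1 at D1 passed the line in the late and early gates as well. Its ratios there were 0.660 and 0.654 with at most 25% mitochondrial UMIs. Scaled without mitochondrial UMIs they were 0.640 and 0.666. The shares of all genes called within gates in these alternatives were not computed. At D4 the gates parted for Slc26a1, at 0.876-fold in the late gate (0.826 to 0.929), 1.03-fold in the early gate (0.980 to 1.08) and 1.38-fold in neither (1.30 to 1.47). Slc13a3 at D7 was 1.04-fold its D0 level in the late gate and 1.31-fold in the early gate, a ratio of ratios of 0.790 (0.743 to 0.841), and neither value was called. Slc13a2 had 0.897-fold and 1.12-fold values in the same gates.

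Slc13a1 counts per cell were followed after thinning every cell to 1000 UMIs. Thinned proximal tubule cells held a mean of 0.274 Slc13a1 UMIs at D0 and 0.616 at D7. At means this low the share of cells with a UMI rises with the level itself. The shares therefore cannot tell more cells with the RNA from more RNA in each cell. Cells with at least 1 Slc13a1 UMI made up 21.9, 27.2, 34.9 and 39.7% of proximal tubule cells at D0, D1, D4 and D7. Before thinning 61.5% of the D0 cells had a UMI. In lymphocyte gate cells, which should lack the gene, the thinned share was 0.651% at D0 (2 of 307 cells) and 0.725% at D1 (4 of 552 cells), with median depths of 1886 and 2677 UMIs against 5672 and 6977.5 in proximal tubule cells. The D4 and D7 libraries held under 50 lymphocyte gate cells. Cells with at least 3 Slc13a1 UMIs numbered 114 of 11513, 228 of 7594, 435 of 15468 and 678 of 13079, and cells with at least 5 made up 0.069, 0.540, 0.388 and 0.757%. The intervals of the shares with 3 or more overlapped between D1 (2.63 to 3.41%) and D4 (2.56 to 3.09%), while the share with any UMI was lower at D1. Thinning left out 490 and 450 shallow cells at D0 and D1 and none at D4 and D7.

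**Figure D3:**
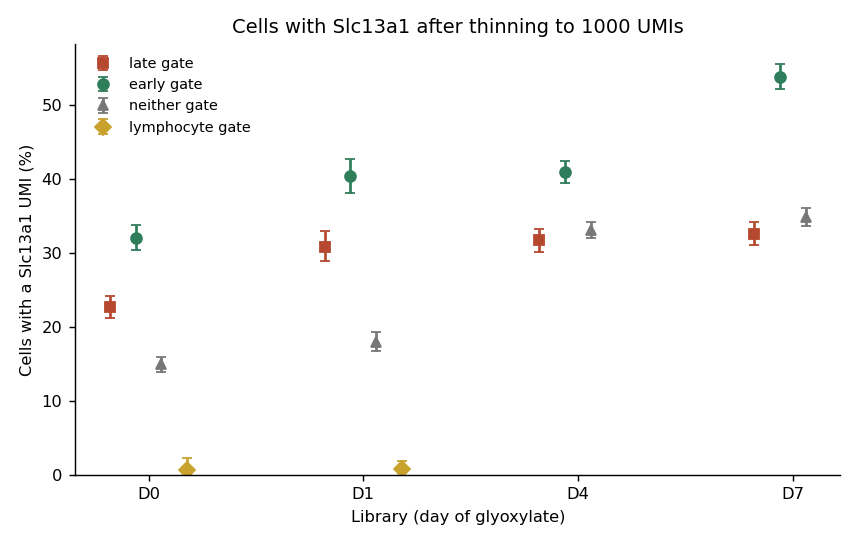
Share of cells with at least 1 Slc13a1 UMI after thinning to 1000 UMIs per cell, in late gate, early gate and neither gate cells and in lymphocyte gate cells of each library; bars are exact 95% binomial intervals, and groups under 50 cells are not drawn. The early gate stands at 53.8% at D7 and 32.0% at D0, and the lymphocyte gate lies under 1% at D0 and D1.

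Havcr1 encodes a receptor that injured proximal tubule cells place on their surface. Proximal tubule cells with at least 1 Havcr1 UMI numbered 10, 113, 468 and 604 at D0, D1, D4 and D7, and the 10 cells of D0 were not compared. In the other libraries Slc13a1 was higher in Havcr1-positive than in Havcr1-negative cells. It had 1392 CPM in positive and 370 CPM in negative cells at D1, a ratio of 3.76 (3.59 to 3.94). At D4 it had 923 CPM in positive and 471 CPM in negative cells, a ratio of 1.96 (1.89 to 2.04), and at D7 1060 CPM in positive and 587 CPM in negative cells, a ratio of 1.80 (1.75 to 1.86). Slc13a1 was the 1 member called higher in all 3 libraries, as were 3.33% of genes, and no member was called lower in all 3, as were 2.64% of genes. In single libraries 13.1, 9.97 and 12.7% of genes were called higher and 14.8, 12.6 and 9.14% lower at D1, D4 and D7.

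Slc26a1 and Slc13a3 lay on the other side. Slc13a3 had 105, 138 and 124 CPM in positive cells and 125, 201 and 182 CPM in negative cells at D1, D4 and D7, with ratios of 0.837 (0.705 to 0.987), 0.690 (0.627 to 0.757) and 0.680 (0.627 to 0.736). Slc26a1 had ratios of 0.926 (0.736 to 1.15), 0.714 (0.626 to 0.811) and 0.713 (0.636 to 0.796). Slc13a2 had 12.4 CPM in positive and 23.5 CPM in negative cells at D1, a ratio of 0.526 from 17 UMIs (0.306 to 0.846), but ratios of 0.855 (0.688 to 1.05) and 0.954 (0.796 to 1.14) at D4 and D7. Only the D1 value of Slc13a2 was called among these, and in cells thinned to 1000 UMIs it was 0.763 and not called. The 3 intervals of Slc26a2 included 1, and Slc26a6, with 6, 12 and 11 UMIs in positive cells, had intervals that include 1 in each library, although its D1 ratio of 1.56 passed the line.

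The levels of these 3 carriers also differed with the Havcr1 count of the cell. At D7, Slc13a3 had 182, 156, 104 and 79.8 CPM in cells with 0, 1, 2 and 3 or more Havcr1 UMIs, and Slc26a1 had 90.3, 74.2, 63.2 and 48.6 CPM. Slc13a1 had 587, 955, 1197 and 1175 CPM in the same cells. At D1 the cells with 2 Havcr1 UMIs, 19 in number, had 1985 CPM of Slc13a1, the highest value of any group here. At D4 the same classes had 201, 162, 130 and 102 CPM of Slc13a3 and 104, 84.2, 75.0 and 57.3 CPM of Slc26a1. At D1 they had 125, 140, 107 and 58.6 CPM of Slc13a3 and 65.3, 58.9, 107 and 40.4 CPM of Slc26a1. Both genes were thus lower with every step at D7 and D4, while at D1, with 60, 19 and 34 cells in the classes with Havcr1, each was higher at 1 of the steps. The D7 intervals overlap between 2 and 3 or more UMIs for Slc13a3, and between neighbouring classes from 1 UMI on for Slc26a1. Median depth also differed between the classes with 0, 1, 2 and 3 or more Havcr1 UMIs. It was 5645, 6968, 8377.5 and 8810 UMIs at D7 and 4992.5, 5822.5, 6231 and 7803 UMIs at D4. The part of depth in these steps was not tested. With at least 2 Havcr1 UMIs as the rule for a positive cell, Slc13a3 was called lower in all 3 libraries, at 0.591, 0.553 and 0.477, as were 4.49% of genes.

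**Figure D4:**
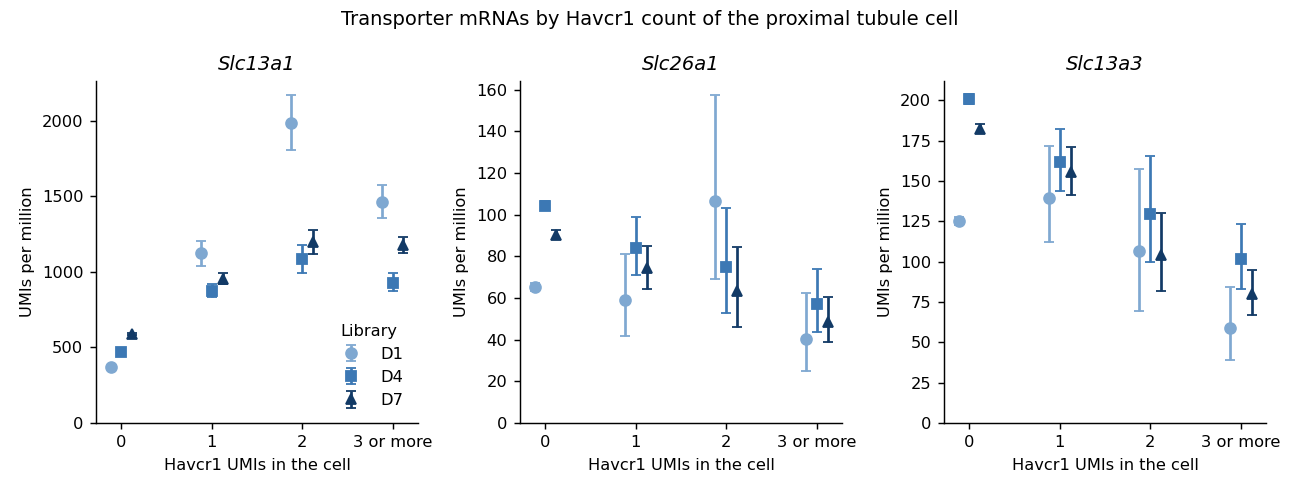
Level of Slc13a1, Slc26a1 and Slc13a3, in CPM, in proximal tubule cells with 0, 1, 2 and 3 or more Havcr1 UMIs of the D1, D4 and D7 libraries; bars are 95% intervals for counting error. Slc13a1 is higher in every class with Havcr1 than in the class without, and Slc13a3 at D7 has 79.8 CPM in the class with 3 or more and 182 CPM in the class with none.

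Havcr1-positive cells were deeper than negative cells, with medians of 10299 against 6937 UMIs at D1, 6399 against 4992.5 at D4 and 7722.5 against 5645 at D7. The early gate held 15.0, 16.2 and 17.2% of positive and 22.8, 26.2 and 27.4% of negative cells. Within the gates, the Slc13a1 ratio was 3.14, 1.42 and 1.71 in the late gate at D1, D4 and D7, so the call is lost at D4, and 1.97 and 1.59 in the early gate at D4 and D7. Slc13a3 had ratios of 0.680, 0.544 and 0.619 in the late gate, against 1.08 (0.856 to 1.34) and 0.857 (0.706 to 1.03) in the early gate at D4 and D7. Slc26a1 had ratios of 0.912 (0.626 to 1.29), 0.451 (0.313 to 0.630) and 0.752 (0.591 to 0.944) in the late gate, against 0.991 (0.779 to 1.24) and 0.791 (0.638 to 0.971) in the early gate at D4 and D7. In the late gate Slc26a1 was called lower at D4, Slc13a3 at D4 and D7, and Slc13a2 at D1, at 0.338 from 7 UMIs (0.136 to 0.700). Calls of Slc26a2 and Slc26a6 within the gates rest on 1 to 8 UMIs in positive cells, with intervals that include 1. The shares of all genes called within a gate of a single library were not computed. In cells of 5000 to 8000 UMIs the Slc13a1 ratio was 2.15 at D4 and 2.12 at D7. Leaving all Havcr1-positive cells out changed the call of no member in the comparisons of days over all proximal tubule cells. Within the gates it ended both D1 calls of Slc13a1, at 1.45-fold (1.41 to 1.49) in the late and 1.47-fold (1.42 to 1.51) in the early gate, where 5.02% and 4.77% of genes were called higher. Its other calls within these gates were kept without those cells, at 1.52-fold at D4 and 1.64-fold at D7 in the late gate and 2.24-fold at D7 in the early gate, where 7.54, 9.1 and 9.91% of genes were called higher. The early gate at D4 stayed under the line, at 1.46-fold, where 6.52% of genes were called higher.

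In the cells of other gates, Slc13a1 and Slc13a3 were at a small share of their proximal tubule level, and Slc26a2 was not. In the mononuclear phagocyte gate (C1q genes and Lyz2) Slc13a1 stood at 8.48 CPM at D1 and 19.3 CPM at D7, 2.17% and 3.13% of the proximal tubule level, where the proximal tubule markers outside the gate stood at a median of 5.34% and 5.64%. Slc13a3 stood at 14.6 and 14.0 CPM there, 11.7% and 7.83%, and Slc26a1 had 1 and 6 UMIs. Slc26a2 instead had 21.6 CPM in this gate at D1 (28 UMIs in 327 cells), which was 378% of the proximal tubule level of 5.71 CPM (251 to 546%). At D7 it had 14.9 CPM (17 UMIs in 264 cells), 269% of 5.54 CPM (157 to 430%). At D0 there was 1 UMI of Slc26a2 in 180 cells of the gate, or 2.11 CPM, with an interval up to 11.7 CPM, and at D4 there were 4 UMIs in 57 cells, or 17.9 CPM. The intercalated cell gate of D7 had 25.7 CPM of Slc26a2 from 6 UMIs in 50 cells (9.42 to 55.9). In the lymphocyte gate Slc26a2 had 8.44 CPM at D0 and 7.76 CPM at D1, and both intervals include the proximal tubule level.

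**Figure D5:**
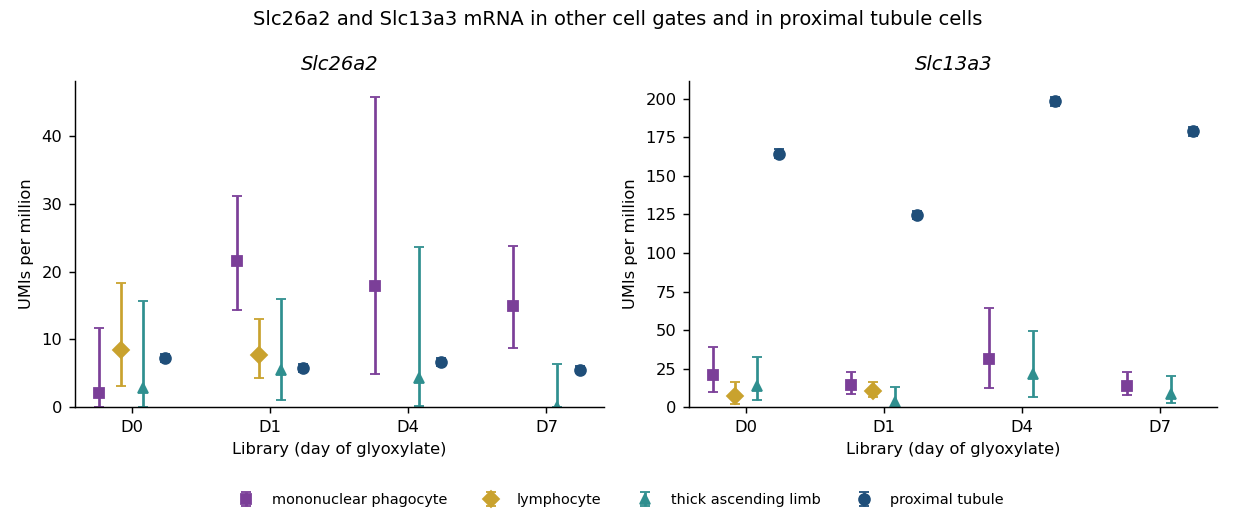
Level of Slc26a2 and Slc13a3, in CPM, in mononuclear phagocyte, lymphocyte and thick ascending limb gate cells and in proximal tubule cells of each library; bars are 95% intervals for counting error, and gates under 50 cells are not drawn. Slc26a2 is higher in the phagocyte gate than in proximal tubule cells at D1 and D7, and Slc13a3 is higher in proximal tubule cells in every library.

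By how their levels ran over 8 profiles (late and early gate in each of the 4 libraries), the genes most like Slc13a1 among 5349 were Tnfrsf1a (a receptor of tumour necrosis factor, r = 0.991), Rps18 (a ribosomal protein, r = 0.987) and Nudt22 (r = 0.987). Tnfrsf1a had 17.7 CPM in the late and 29.9 CPM in the early gate at D7, against 9.51 and 14.7 CPM in the same gates at D0. The nearest to Slc26a1 were Vldlr (a lipoprotein receptor, r = 0.995), Pnpla6 and Evc, those to Slc13a3 were Aup1 (r = 0.990), Fam102a and BC004004, and those to Slc13a2 were Ddrgk1 (r = 0.999) and Fam213a. The profiles share libraries and depth, and with so few of them high values of r are easily reached. Slc26a2 and Slc26a6 were under the level minimum of 20 CPM.

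Of the 10 other genes of both families, 4 had enough UMIs, and 1 was called higher at D1, none at D4 and 1 lower at D7. Slc26a4 (pendrin, a chloride and bicarbonate exchanger of intercalated cells) was 2.09-fold higher at D1 (1.61 to 2.72), and intercalated cell markers, of which it is itself 1, summed to 28.6 CPM at D1 against 19.6 CPM at D0 in the same cells; their part in the value was not tested. Slc13a4, another sodium sulfate carrier, was lower at D7, at 0.575-fold (0.432 to 0.762) and 0.960 CPM, but in cells thinned to 1000 UMIs the ratio was 0.998 and the call was lost. Of all genes 9.39, 8.17 and 13.3% were called higher and 1.71, 2.87 and 3.43% lower at D1, D4 and D7. Slc26a11 had 1.22-fold and Slc13a5 1.07-fold values at D7, and neither was called.

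Sulfate is also made in the cell from cysteine and is activated before it can be passed on. Of 17 measured genes of this pathway none was called at D1, 2 were called lower at D4 and 1 at D7, and none was called higher. Of all genes 1.71, 2.87 and 3.43% were called lower at D1, D4 and D7, and 9.39, 8.17 and 13.3% higher. Papss1, which makes the activated sulfate donor, had 43.2, 41.1, 27.2 and 28.6 CPM at D0, D1, D4 and D7, with ratios to D0 of 0.630 at D4 (0.598 to 0.664) and 0.661 at D7 (0.628 to 0.697). The D7 value lies close to the line and passed it in 8 of 14 alternatives, from 0.576 in cells thinned to 1000 UMIs to 0.705 in cells of 5000 to 8000 UMIs. Suox (sulfite oxidase) was at 0.764-fold, Cbs (cystathionine beta-synthase) at 0.777-fold and Csad (of taurine synthesis) at 0.789-fold at D7, each below 1 by more than the counting interval and none called. The other gene called at D4 was Sult1a1, a sulfotransferase, from 41 against 58 UMIs with an interval that includes 1. The median log2 ratios of the list were 0.06, -0.23 and -0.17 at D1, D4 and D7, beside 0.12, 0.03 and 0.08 for all genes.

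A list of 14 genes was set beside the apical exchangers, though not all of them are apical or of the proximal tubule. None was called at D1 or D4 and 2 were called lower at D7. Of all genes 1.71, 2.87 and 3.43% were called lower and 9.39, 8.17 and 13.3% higher at D1, D4 and D7. Car14, a carbonic anhydrase on the cell surface, had 64.5, 44.6, 51.4 and 36.1 CPM at D0, D1, D4 and D7, a D7 ratio of 0.559 (0.535 to 0.585). Slc4a1, a chloride and bicarbonate exchanger of intercalated cells, had 31 UMIs at D7 against 51 at D0, a ratio of 0.580 that turned round in alternatives given under the processing. Cftr was at 1.45-fold and Pdzk1ip1 (a protein that binds the scaffold of the brush border) at 1.36-fold at D7, neither called. The median log2 ratios of this list were -0.06, -0.08 and -0.17 at D1, D4 and D7, beside 0.12, 0.03 and 0.08 for all genes.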

How the data were processed

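The deposited files hold UMI counts per gene and barcode, which the authors made from 10x 3' v2 libraries; Cell Ranger 3.1.0 and mm10 are named per the submitters' processing notes, and software 3.0.1 per the file headers. The cell calling and the annotation release are not stated. The values were not normalized. UMIs were summed over the cells of a gate in each library and divided by the sum of all genes (CPM). Ratios of CPM have exact conditional intervals and shares exact Clopper-Pearson intervals, at 95%. Genes with at least 50 UMIs in a pair were compared, and 1.5-fold was the line for a call. No p-value was computed, as each day has 1 library. The D0, D1, D4 and D7 libraries held 99337001, 85009491, 91122085 and 94512170 UMIs in all. The other gates required fewer than 2 UMIs of Lrp2 and Slc34a1, and a barcode in more than 1 of them was left out. Doublets were kept, and removing the top Scrublet scores (scanpy 1.11.5) at 0.8% per 1000 cells was an alternative. TMM factors from edgeR served as a scaling only. Settings for non-mitochondrial scaling and for cells of 5000 to 8000 UMIs, and all alternatives for the days within gates, were added after the data were seen.

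The 6 members, the gene lists and the gates were chosen with earlier results of these data known. The text names the 6 members, up to 4 genes per list with the largest log2 ratio in size at D7, and up to 3 genes most like each member by Pearson r of log2(CPM + 1). Some genes that this rule names are not reported here. Sult1a1 and the overlapping genes were named after their values were seen. The calculation of the ratios was run on simulated data, Poisson draws of D7 over D0 with 12757 genes. Of these, 67 lowered by 1 on the log2 scale, 66 raised by 1 and 67 raised by 2 were all called. Among 12557 unchanged genes 96 were called, and 95.2% of intervals held the true ratio. The draws hold counting error only, as the intervals assume. They check the calculation and cannot show how the intervals hold against differences between mice, dissections or runs. NumPy 2.4.6, SciPy 1.17.1 and pandas 2.3.3 were used.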

Additional observations from a re-analysis of the deposited data

Results flagged for a closer look

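Barcodes above the limit of 50% mitochondrial UMIs entered no comparison. Among those with at least 2 UMIs of Lrp2 and Slc34a1 together, the D7 to D0 ratio of Slc13a1 was 2.91 (2.63 to 3.23). It came from 695 against 826 UMIs in 439 and 1087 barcodes. The ratio of Slc13a3 in the same barcodes was 1.22 (1.07 to 1.37), from 358 against 1020 UMIs. Both are listed because a signal appeared in data that the comparisons left out, and neither has a replicate.

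The D4 to D0 ratio of Slc26a1 lay on opposite sides of 1 in different cells: 1.38 (1.30 to 1.47) in proximal tubule cells of neither segment gate and 0.876 (0.826 to 0.929) in the late gate. The difference was not tested between animals, since each day has 1 library.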

How the results depend on the processing

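Slc13a1 kept its calls at D4 and D7 in every alternative but the 2-fold line, where 0 members were called higher at D4. The single member called lower at D1, Slc26a1, was not called (0 members) with at least 5 UMIs of Lrp2 and Slc34a1, in thinned cells, in cells of 5000 to 8000 UMIs or at the 2-fold line. The number of genes called higher and lower, for D1, D4 and D7 against D0 in turn, was 3615 and 1905, 3420 and 1996, and 4310 and 2090 with a minimum of 1 UMI; 606 and 55, 532 and 115, and 991 and 157 at the 2-fold line; and 530 and 86, 563 and 129, and 1030 and 210 for ratios of CPM + 1. In thinned cells 574, 476 and 727 genes were called higher. At D1, 631 genes were called higher without cells of another gate and 683 in cells of 5000 to 8000 UMIs (1069 at D7), and 479 genes were called lower with TMM factors and 345 without mitochondrial UMIs in the scale.

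For the late over the early gate in all 4 libraries, the members called higher were 2 with the highest doublet scores removed, in thinned cells and with both gates at 5 UMIs, and 0 at the 2-fold line and with gates on thinned cells; members called lower were 0 at the 2-fold line and 2 with both gates at 5 UMIs and with gates on thinned cells. Genes called higher and lower were 230 and 400 in thinned cells, 652 and 1898 with a minimum of 1 UMI, 220 and 461 at the 2-fold line, 88 and 117 with gates on thinned cells, and 244 and 481 in cells of 5000 to 8000 UMIs. For Havcr1-positive over negative cells, members called higher were 0 at the 2-fold line and within the late gate, and 1 (Slc13a3) was called lower with at least 2 Havcr1 UMIs. Genes called higher and lower were 152 and 166 in thinned cells, 588 and 2032 with a minimum of 1 UMI, 155 and 106 at the 2-fold line and 229 and 113 within the late gate. Genes called lower were 169 with at least 5 UMIs of Lrp2 and Slc34a1, 187 without cells of another gate, 183 for ratios of CPM + 1 and 522 with at least 2 Havcr1 UMIs.

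Among called ratios, directions turned for Slc4a1 at D7 over D0 (1.53 with at least 5 UMIs of Lrp2 and Slc34a1, 1.46 without cells of another gate) and for Slc26a6: late over early gate 1.11 at D0 in thinned cells and 1.96 at D4 with gates on thinned cells, and Havcr1-positive over negative at D1 0 in thinned cells and 0.583 within the late gate. Of 97 ratios that were not called, 39 lay on the other side of 1 in at least 1 alternative. Examples are Slc26a4 at D7 over D0 (1.07, but 0.431 without cells of another gate), Slc26a11 at D7 over D0 (1.22, but 0.863 in thinned cells), Slc26a2 late over early gate at D1 (0.969, but 3.29 with gates on thinned cells), and Slc26a6 Havcr1-positive over negative within the early gate (0.531 at D4 and 1.79 at D7, beside 1.37 and 0.833 in all cells). Causes were not tested. No paired analysis was possible because the days share only replicate number 1. Of 276 alternative counts 212 stayed within 1.5 times. The Havcr1 counts in all 3 libraries gave no value in cells of 5000 to 8000 UMIs or within the early gate, where D1 had too few positive cells. With 1 library per day, differences between mice, dissections or runs cannot be told apart from differences between days, and Slc26a6 is limited by its 192 to 237 UMIs.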

Other observations

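Of 15 measured genes of citrate and dicarboxylate handling, 1 was called lower at D1, D4 and D7 and none was called higher, while of all genes 1.71, 2.87 and 3.43% were called lower and 9.39, 8.17 and 13.3% higher. That gene was Slc22a7, an organic anion carrier that also moves dicarboxylates, with 31.4, 15.2, 12.6 and 13.9 CPM at D0, D1, D4 and D7 and a D7 ratio of 0.442 (0.412 to 0.473). Slc22a8 (0.715-fold), Me1 (malic enzyme, 0.783-fold) and Slc25a10 (the mitochondrial dicarboxylate carrier, 0.790-fold) were next in size at D7 and were not called. The median log2 ratios of the list were 0.00, -0.09 and -0.23 at D1, D4 and D7, beside 0.12, 0.03 and 0.08 for all genes.

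Of 12 measured transcription regulators listed as candidates for these carriers, 1, not reported here, was called higher at D1 and D7. None was called at D4 and none was called lower. Of all genes 9.39, 8.17 and 13.3% were called higher and 1.71, 2.87 and 3.43% lower at D1, D4 and D7. The vitamin D receptor gene Vdr was at 0.732-fold (0.705 to 0.761), Maf at 0.780-fold and Ahr (the aryl hydrocarbon receptor) at 1.35-fold at D7, and none of the 3 was called.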
